A study of Mus musculus with 8 samples.

Results

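The 9 genes Ms4a1, Cd79a, Cd79b, Pax5, Cr2, Fcer2a, Blk, Cd22 and Fcmr are markers of B cells, and their RNA was followed in 8 mouse colon tumours. They were taken by name, and all 9 were found among the 38355 genes of the deposited tables and entered the test of 16539 genes. The tumours came from mice treated with azoxymethane, a colon carcinogen, and 1 whole tumour was taken per mouse, so the tumours of a group come from separate mice. The first group, Trp53ΔIEC (4 tumours), lacks the tumour suppressor gene Trp53 in intestinal epithelial cells, as ΔIEC is written in the field. The second, Trp53ΔIECAktE17K (4 tumours), has the same loss together with AktE17K, an activated form of the kinase AKT. All mice thus share the Trp53 loss and the carcinogen, and no tumour with intact Trp53 and no normal colon is analysed here. The labels used here name no strain, age, sex, carcinogen dose or promoter driving the deletion.

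B cells recognise antigen through the B cell receptor, a membrane immunoglobulin that signals through the paired proteins CD79A and CD79B. Surface proteins set the strength of that signal: the complement receptor CR2 raises it, whereas CD22 lowers it. In the colon, B cells gather in lymphoid follicles of the mucosa, and the plasma cells they give rise to settle in the lamina propria and secrete mostly IgA. A whole tumour holds these cells beside epithelium, stroma and other leukocytes. In such bulk RNA, fewer B cells and less RNA per B cell cannot be told apart.

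None of the 9 B cell genes passed the test between the genotypes; the smallest adjusted p was 0.418, for Pax5. What the data did show was a wide spread between tumours of the same genotype, and the 9 genes shared it. The span from lowest to highest ran from 3.94-fold (Fcer2a) to 10.5-fold (Ms4a1) in Trp53ΔIEC. In Trp53ΔIECAktE17K it ran from 3.31-fold (Cd22) to 12.8-fold (Cd79a). Over all 8 tumours, both genotypes together, it ran from 5.55-fold for Cd22 to 15.8-fold for Ms4a1. Trp53ΔIEC replicate 3 had the highest level in its group for all 9. In Trp53ΔIECAktE17K, replicates 1 and 4 both stood above replicates 2 and 3 for all 9.

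Several facts about the libraries bear on what follows. Reads assigned to genes numbered 18572180 to 26268547 per tumour, the fewest in Trp53ΔIEC replicate 3, the tumour with the highest B cell gene levels in its group. Levels are given as CPM, the usual scaling of a gene's reads to the size of its library, here after TMM correction of that size. Trp53 lay at 20.9 to 25.8 CPM in Trp53ΔIEC and 24.8 to 37.1 CPM in Trp53ΔIECAktE17K, and Akt1 at 383 to 430.2 and 338 to 409.6 CPM; whole-gene counts from whole tumours do not check an epithelial deletion or a single-residue substitution. Markers of other tissues differed between the groups. In Trp53ΔIECAktE17K, 7 of 9 tested heart muscle genes, 7 of 10 fibroblast and smooth muscle genes and 4 of 5 erythroid genes were called higher, whereas the erythroid gene Hba-a2 and the hepatocyte gene Crp (1 of 7 tested hepatocyte genes) were called lower. With any 1 tumour left out, 6 heart muscle genes, 2 to 6 fibroblast and smooth muscle genes and 0 to 5 erythroid genes were called. The summed heart muscle genes came to 36.9 to 115 CPM in Trp53ΔIEC and 160.4 to 229 CPM in Trp53ΔIECAktE17K, and Myl3, a cardiac myosin light chain, was at 0 in all 4 Trp53ΔIEC tumours. Most of the Trp53ΔIEC sum came from Myl7 (11.1 to 102 CPM) and Tnnt2 (9.16 to 29.5 CPM), which were not called. The log2 fold changes of the 7 called genes ran from 1.31 for Tnni3 to 10.3 for Myl3, so the sums understate them. The summed fibroblast and smooth muscle genes came to 2455 to 3756 and 5003 to 7933 CPM, the erythroid genes to 7.63 to 30.7 and 73.1 to 169 CPM, and the hepatocyte genes to 38.8 to 74.9 and 13.9 to 139 CPM. The hepatocyte sum of 139 CPM was that of Trp53ΔIECAktE17K replicate 3, where Fgb alone was at 126 CPM. The part of these differences in the B cell results was not tested. Epithelial genes, which define the labelled tissue, summed to 10100 to 12770 CPM in Trp53ΔIEC and 5384 to 13770 CPM in Trp53ΔIECAktE17K, so each tumour held abundant epithelial RNA. Of the 10 epithelial genes, 9 had lower estimates in Trp53ΔIECAktE17K, with a median log2 fold change of -0.41. EdgeR called 0 of them, beside 4.20% of all genes, and DESeq2 called 2 lower, beside 13.0% of all genes called in either direction.

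Across all 16539 genes, edgeR's quasi-likelihood F-test called 4.20% at a Benjamini-Hochberg adjusted p under 0.05, 3.44% higher and 0.756% lower in Trp53ΔIECAktE17K. It called 0 of the 9 B cell genes in either direction. At an unadjusted p under 0.05 the count was again 0 of 9, where the share over all genes was 20.8%. DESeq2, which called 13.0% of these genes, and limma-voom, which called 3.13%, also called 0 of the 9. With all tumours 694 genes were called, and with 1 tumour left out between 74 and 949, but the B cell genes called stayed at 0 throughout. The groups did not overlap for 14.2% of all genes and for 0 of the 9. Of the log2 fold changes (Trp53ΔIECAktE17K over Trp53ΔIEC throughout), 4 were positive and 5 negative, with a median of -0.037 beside 0.010 over all genes tested. These signs rested on single tumours: without Trp53ΔIEC replicate 3, 8 of the 9 were positive and the median was 0.91, and without Trp53ΔIECAktE17K replicate 4, 2 were positive and the median was -0.29. Without Trp53ΔIECAktE17K replicate 2, 1 of the 9 had an unadjusted p under 0.05.

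The members' standard errors were large. Their median SE was 0.71 on the log2 scale, against 0.27 over all genes, and their median standard deviation within a group was 1.09, against 0.37. The 95% intervals reached from -2.08 at the lowest bound to 2.74 at the highest, and the narrowest still extended 1.37 to either side of its estimate. A doubling (log2 fold change of 1) lay inside the interval of 8 genes and a halving (-1) inside that of 7, with both inside for 6. Most of these intervals thus include changes of that size in both directions, and a missing call does not show equal levels.

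**Figure D1:**
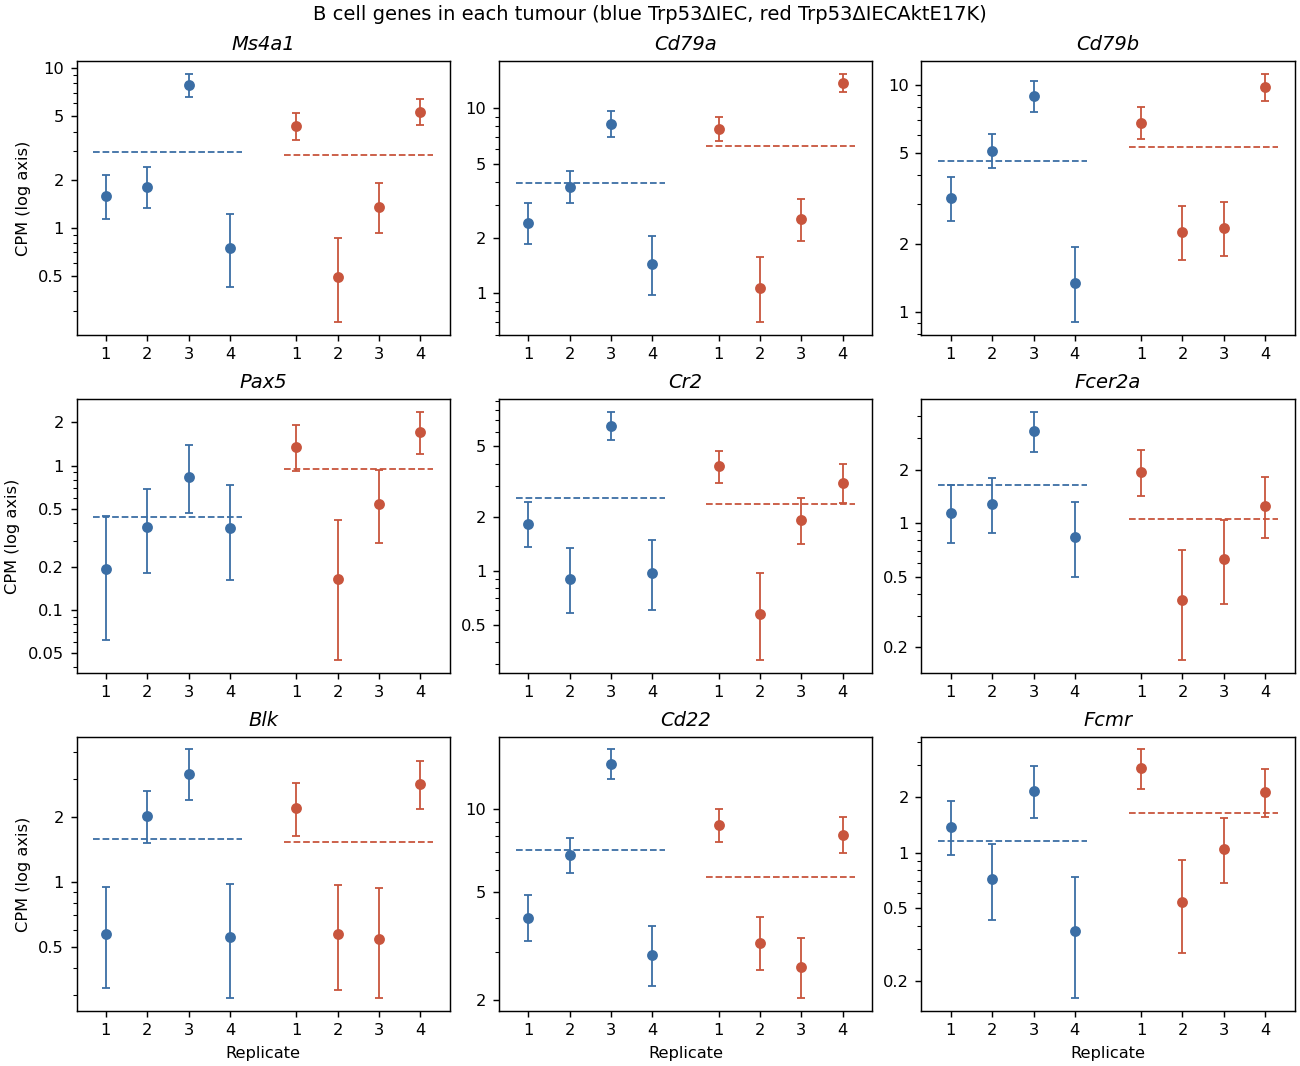
Level of each of the 9 B cell genes in each tumour, as CPM on a log axis, with Trp53ΔIEC in blue and Trp53ΔIECAktE17K in red. Points are single tumours, bars are 95% exact Poisson intervals of the count (counting error only) and dashed lines are group means; within each genotype the same tumours are high or low in nearly all panels.

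The promoters of 2 members are shown because B cell promoters are known for shared elements, the octamer bound by OCT proteins and the core bound by PU.1. Any part of these elements in the tumour order shared by the 9 genes was not tested. RefSeq sequences (GRCm38.p6, the assembly of the mm10 build named for these tables) were at hand for 6 of the 9 members, with 8 promoters in all since Fcer2a has 3. Cd79a is shown as the member with the highest level per length and a match, and Cr2 as one with none. Each runs 5′ to 3′ on the gene's own strand and ends before the first annotated base of the gene, and the capitals mark the PU.1 core as its reverse complement. The Cd79a stretch holds 134 bases, the first part of the 250 searched. Its RefSeq start, from which positions are counted below, lies inside the annotated gene.
Cd79a promoter, chr7:24897247-24897380, plus strand: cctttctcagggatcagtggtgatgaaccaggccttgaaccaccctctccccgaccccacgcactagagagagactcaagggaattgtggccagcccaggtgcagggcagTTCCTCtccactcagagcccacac
Cr2 promoter, chr1:195176720-195176969, minus strand: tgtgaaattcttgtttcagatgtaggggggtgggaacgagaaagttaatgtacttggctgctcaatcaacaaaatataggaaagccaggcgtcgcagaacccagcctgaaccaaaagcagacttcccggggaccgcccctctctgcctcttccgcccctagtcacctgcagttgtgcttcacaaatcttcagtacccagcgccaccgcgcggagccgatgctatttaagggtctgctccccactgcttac

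The 250 bases before each RefSeq start were searched on both strands. The octamer, ATGCAAAT or its reverse complement ATTTGCAT, was in 0 of the 8 member promoters and in 1.60% of all 32851 promoters of that length. The PU.1 core, searched as GAGGAA or TTCCTC, was in 2 of the 8, those of Cd79a (140 to 135 bases before the start) and Fcmr (36 to 31 bases before it), and in 23.3% of all promoters. With no octamer found, no matches of the 2 motifs overlapped. A match describes letters only and is not a binding site.

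Cd79a and Cd79b encode the signalling pair of the B cell receptor and had the highest levels per length. Cd79a (ENSMUSG00000003379, mm10 chr7:24897381-24902197) was measured at 2.41, 3.76, 8.21 and 1.44 CPM in Trp53ΔIEC replicates 1 to 4 and at 7.75, 1.07, 2.52 and 13.7 CPM in Trp53ΔIECAktE17K replicates 1 to 4. The highest and the lowest of the 8 tumours were both Trp53ΔIECAktE17K, replicates 4 and 2, so the range of that group enclosed the other. The means were 3.96 ± 2.99 and 6.26 ± 5.73 CPM (SD, n = 4 each), a log2 fold change of 0.66 ± 0.81 (SE; edgeR adjusted p = 0.689).

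Cd79b (ENSMUSG00000040592, chr11:106311341-106314762) had 3.18, 5.11, 8.88 and 1.35 CPM in Trp53ΔIEC replicates 1 to 4. It had 6.82, 2.26, 2.35 and 9.78 CPM in Trp53ΔIECAktE17K replicates 1 to 4. Trp53ΔIEC replicate 3 and Trp53ΔIECAktE17K replicates 1 and 4 were again the 3 highest, and the groups overlapped over most of their range. The log2 fold change was 0.20 ± 0.67 (edgeR adjusted p = 0.902).

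Blk encodes a SRC-family kinase that acts just below the receptor. Blk (ENSMUSG00000014453, chr14:63372836-63417037) took 2 levels in both genotypes, 0.574 and 0.558 CPM in Trp53ΔIEC replicates 1 and 4 against 2.03 and 3.19 CPM in replicates 2 and 3, and 0.576 and 0.546 CPM in Trp53ΔIECAktE17K replicates 2 and 3 against 2.20 and 2.84 CPM in replicates 1 and 4. With 2 low and 2 high tumours on each side, the group means nearly coincided, at 1.59 ± 1.27 and 1.54 ± 1.16 CPM (SD, n = 4 each). Its log2 fold change of -0.037 ± 0.76 had the largest adjusted p of the 9 (edgeR, 0.986).

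Pax5, the transcription factor that holds cells to the B lineage, was the scarcest member and had the largest fold change. Pax5 (ENSMUSG00000014030, chr4:44524757-44710487) gave 0.191, 0.376, 0.838 and 0.372 CPM in Trp53ΔIEC replicates 1 to 4. Trp53ΔIECAktE17K replicates 1 to 4 gave 1.36, 0.165, 0.546 and 1.72 CPM. Only replicates 1 and 4 of the latter group were above all Trp53ΔIEC tumours, and replicate 2 was below all of them. The means were 0.444 ± 0.276 and 0.947 ± 0.717 CPM (SD, n = 4 each). The log2 fold change of 1.11 ± 0.71 (95% interval -0.52 to 2.74) had the smallest p of the 9, 0.157 before and 0.418 after edgeR's adjustment. These levels rest on 4 to 37 reads a tumour: the 4 reads of Trp53ΔIECAktE17K replicate 2 allow 0.0449 to 0.421 CPM by an exact 95% Poisson interval, which covers counting error only. The exons of Pax5 share 125 bases (1.41%) with the antisense gene Gm12462 and 636 bases (7.18%) with 5730488B01Rik, and the library kit does not record strand, so reads of these stretches cannot be assigned to one gene.

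Ms4a1 encodes CD20, a membrane protein of mature B cells, and had the widest span over the 8 tumours. Ms4a1 (ENSMUSG00000024673, chr19:11249675-11266241) stood at 1.57, 1.81, 7.82 and 0.745 CPM in Trp53ΔIEC replicates 1 to 4, where replicate 3 was far above the other 3. In Trp53ΔIECAktE17K replicates 1 to 4 it stood at 4.32, 0.494, 1.34 and 5.31 CPM, split into a high and a low pair. The means of 2.99 ± 3.26 and 2.87 ± 2.31 CPM (SD, n = 4 each) gave a log2 fold change of -0.052 ± 0.89 (95% interval -2.08 to 1.98; edgeR adjusted p = 0.983). Without Trp53ΔIEC replicate 3 the value was 1.03 (edgeR adjusted p = 0.543).

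Cr2, which encodes the complement receptors CR2 and CR1 of the mouse and is also made by follicular dendritic cells, behaved likewise. Cr2 (ENSMUSG00000026616, chr1:195136811-195176716) was at 1.84, 0.902, 6.54 and 0.977 CPM in Trp53ΔIEC replicates 1 to 4 and at 3.85, 0.576, 1.93 and 3.12 CPM in Trp53ΔIECAktE17K replicates 1 to 4. Trp53ΔIEC replicate 3 was the highest of the 8, and the other 3 Trp53ΔIEC tumours lay within the lower part of the Trp53ΔIECAktE17K range. The log2 fold change was -0.10 ± 0.77 (edgeR adjusted p = 0.957), and 0.91 without Trp53ΔIEC replicate 3 (edgeR adjusted p = 0.495).

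The other 3 members encode receptors that bind sugars or antibodies. CD22 binds sialic acid and restrains the B cell receptor, and Cd22 (ENSMUSG00000030577, chr7:30865402-30880342) had the narrowest span from lowest to highest over the 8 tumours. It was at 4.02, 6.81, 14.7 and 2.93 CPM in Trp53ΔIEC replicates 1 to 4 and at 8.76, 3.25, 2.65 and 8.06 CPM in Trp53ΔIECAktE17K replicates 1 to 4. The Trp53ΔIECAktE17K tumours lay almost wholly inside the range of the other group, and the log2 fold change was -0.32 ± 0.60 (edgeR adjusted p = 0.803), or 0.28 without Trp53ΔIEC replicate 3. The antisense gene Gm29439 overlaps 479 of its exon bases (9.50%).

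Fcer2a encodes CD23, the low-affinity IgE receptor of mature B cells, and had the most negative fold change. Fcer2a (ENSMUSG00000005540, chr8:3681737-3694175) gave 1.15, 1.28, 3.30 and 0.838 CPM in Trp53ΔIEC replicates 1 to 4 and 1.95, 0.370, 0.630 and 1.26 CPM in Trp53ΔIECAktE17K replicates 1 to 4. Replicates 2 and 3 of the latter group were below every Trp53ΔIEC tumour and its other 2 were within their range. The log2 fold change was -0.63 ± 0.61 (95% interval -2.03 to 0.76; edgeR adjusted p = 0.603).

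Fcmr encodes a receptor for IgM. Fcmr (ENSMUSG00000042474, chr1:130865669-130880791) gave 1.38, 0.714, 2.18 and 0.372 CPM in Trp53ΔIEC replicates 1 to 4 and 2.88, 0.535, 1.05 and 2.14 CPM in Trp53ΔIECAktE17K replicates 1 to 4. Trp53ΔIEC replicate 4 was the lowest of the 8 and Trp53ΔIECAktE17K replicate 1 the highest. The log2 fold change was 0.51 ± 0.65 (edgeR adjusted p = 0.700).

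**Figure D2:**
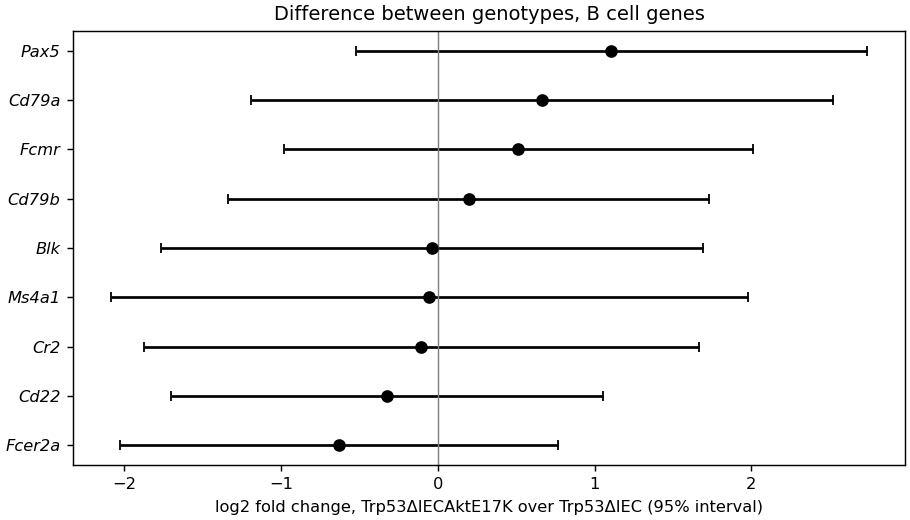
Log2 fold change of each B cell gene, Trp53ΔIECAktE17K over Trp53ΔIEC, with its 95% interval from edgeR's quasi-likelihood fit of 4 against 4 tumours. Estimates run from -0.63 (Fcer2a) to 1.11 (Pax5), and every interval crosses 0.

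To compare the genes with each other, levels were divided by exon length and given as RPKM, as the mean over the 8 tumours. Cd79a and Cd79b led, at 3.51 ± 3.02 and 3.47 ± 2.25 RPKM (SD, n = 8), and each was the higher of the pair in 4 of 8 tumours. Cd22 followed at 1.27 ± 0.818 RPKM, below Cd79b in 8 of 8 tumours. Fcmr had 0.810 ± 0.522 RPKM, below Cd22 in 7 of 8. Blk (0.580 ± 0.418 RPKM), Ms4a1 (0.473 ± 0.423 RPKM) and Fcer2a (0.435 ± 0.298 RPKM) could not be put in an order: Blk was above Ms4a1 in 5 of 8 tumours and Ms4a1 above Fcer2a in 4 of 8. Cr2 had 0.304 ± 0.246 RPKM, below Fcer2a in 7 of 8. Pax5 was lowest, at 0.0786 ± 0.0644 RPKM, below Cr2 in 8 of 8. The signalling pair made up most of the summed RPKM of the 9 genes in each tumour, Cd79a from 19.5% to 42.8% and Cd79b from 27.0% to 41.9%.

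The order of the tumours was shared by the members to a degree set out here against all genes; it was noticed in these values and is described without a test. The tumour Trp53ΔIEC replicate 3 was the highest of its group for 9 of 9 members and for 23.9% of all genes. Trp53ΔIEC replicate 4 was the lowest for 7 of the 9; the exceptions were Pax5, lowest in replicate 1, and Cr2, lowest in replicate 2. Trp53ΔIECAktE17K replicates 1 and 4 were both above replicates 2 and 3 for 9 of 9 members and for 23.2% of all genes, with replicate 2 the lowest for 7 and replicate 3 for the other 2, Blk and Cd22. Genes counted in one library share its depth and its mix of cells, so the 9 are not independent of each other.

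Summed over the 9 members, the level was 16.3, 22.8, 55.6 and 9.59 CPM in Trp53ΔIEC replicates 1 to 4. In Trp53ΔIECAktE17K replicates 1 to 4 it was 39.9, 9.30, 13.6 and 47.9 CPM. The spans were 5.81-fold and 5.15-fold, and the means of 26.1 ± 20.4 and 27.7 ± 19.1 CPM (SD, n = 4 each) differed by far less than either SD.

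Other leukocytes followed this order in part. The 10 pan-leukocyte genes, among them Ptprc (CD45), summed to 228, 479, 609 and 231 CPM in Trp53ΔIEC replicates 1 to 4 and to 498, 549, 195 and 480.3 CPM in Trp53ΔIECAktE17K replicates 1 to 4. Trp53ΔIEC replicate 3 was thus high in both, but Trp53ΔIECAktE17K replicate 2 had the most pan-leukocyte and the least B cell RNA of its group. Replicate 3 was the highest Trp53ΔIEC tumour for 10 of 10 pan-leukocyte genes, whereas Trp53ΔIECAktE17K replicates 1 and 4 led for 3 of 10. The T cell genes summed to 46.5, 105, 128 and 43.0 CPM in Trp53ΔIEC replicates 1 to 4 and to 71.0, 45.4, 23.8 and 71.6 CPM in Trp53ΔIECAktE17K replicates 1 to 4. Both orders were common among them, with 13 of 15 tested T cell genes highest in Trp53ΔIEC replicate 3 and 10 of 15 higher in Trp53ΔIECAktE17K replicates 1 and 4.

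**Figure D3:**
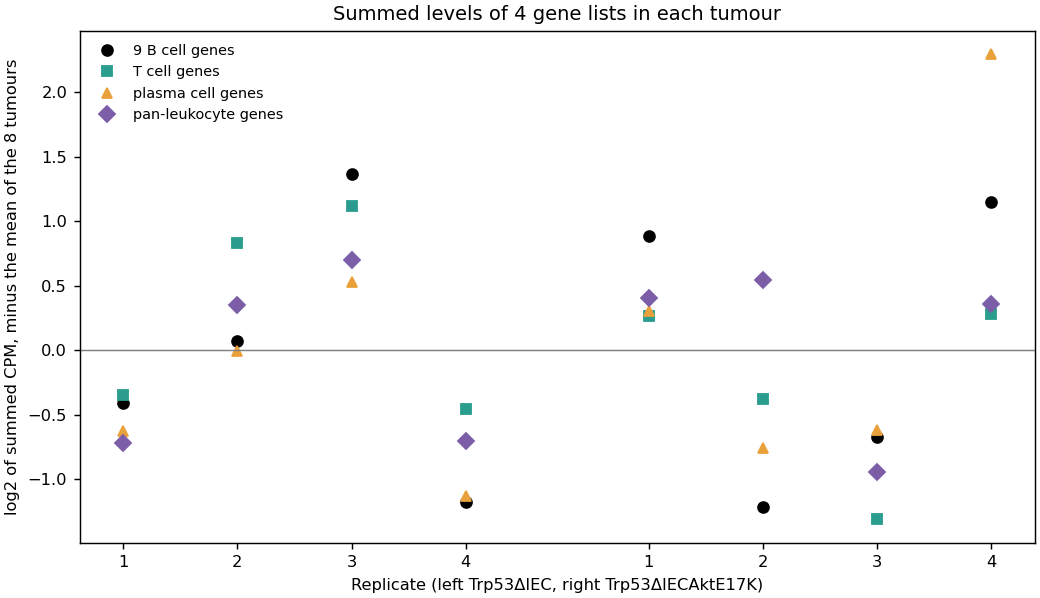
Summed CPM of the 9 B cell genes, the T cell genes, the plasma cell genes and the pan-leukocyte genes in each tumour, as log2 after subtracting each list's mean over the 8 tumours. B cell genes are high in Trp53ΔIEC replicate 3 and in Trp53ΔIECAktE17K replicates 1 and 4, and pan-leukocyte genes part from them in Trp53ΔIECAktE17K replicate 2.

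Set against the pan-leukocyte genes, the 9 members came to 7.15%, 4.76%, 9.14% and 4.15% of that sum in Trp53ΔIEC replicates 1 to 4 and to 8.003%, 1.70%, 6.96% and 9.98% in Trp53ΔIECAktE17K replicates 1 to 4. The means were 6.30% ± 2.29 and 6.66% ± 3.54 (SD, n = 4 each), so the groups did not separate on this scale either. Set against the T cell genes, they came to 35.1%, 21.8%, 43.4% and 22.3% in Trp53ΔIEC and to 56.1%, 20.5%, 57.0% and 66.9% in Trp53ΔIECAktE17K, again replicates 1 to 4. In 3 of the 4 Trp53ΔIECAktE17K tumours this ratio was above every Trp53ΔIEC tumour, and in replicate 2 below every one. Set against Jchain, which encodes the joining chain of secreted IgA and IgM, they came to 9.69%, 7.72%, 9.36% and 9.57% in Trp53ΔIEC. This ratio was nearly constant there, with a mean of 9.09% ± 0.918 (SD, n = 4), while the sums themselves spanned 5.81-fold. In Trp53ΔIECAktE17K it was 8.72%, 6.49%, 10.8% and 2.68%, with replicate 4 far below the rest.

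**Figure D4:**
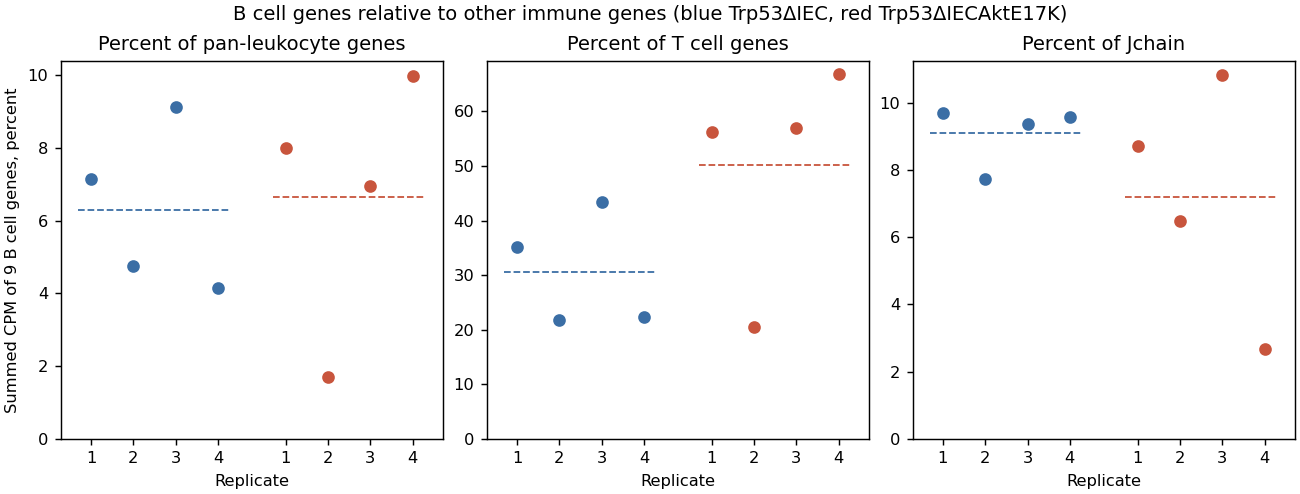
Summed CPM of the 9 B cell genes as a percentage of the pan-leukocyte genes, of the T cell genes and of Jchain in each tumour; dashed lines are group means. The ratio to Jchain lies between 7.72% and 9.69% in Trp53ΔIEC and reaches down to 2.68% in Trp53ΔIECAktE17K replicate 4.

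The members were also compared with each other, since a ratio of 2 B cell genes within a tumour does not depend on how much of the tumour is B cells as long as both scale with it. Of the 36 pairs, 1 reached the smallest p that the exact two-sided permutation test over the 70 assignments of 4 against 4 tumours can give, 0.0286. That pair was Fcer2a over Fcmr. The ratio of their counts was 0.833, 1.79, 1.51 and 2.25 in the Trp53ΔIEC tumours, replicates 1 to 4. It was 0.676, 0.692, 0.6 and 0.587 in the Trp53ΔIECAktE17K tumours, replicates 1 to 4. All 4 Trp53ΔIECAktE17K tumours were below all 4 Trp53ΔIEC tumours, with geometric means of 0.637 and 1.501 and a log2 difference of -1.24. The gap between the groups was narrow for the reads behind it: the lowest Trp53ΔIEC ratio came from 30 reads of Fcer2a and 36 of Fcmr, and the highest Trp53ΔIECAktE17K ratio from 9 and 13. The ratio of 2.25 came from 18 and 8 reads. After Benjamini-Hochberg adjustment over the 36 pairs the exact permutation p was 0.572, and 0 pairs passed. As no p can fall below 0.0286, a single separated pair among 36 could not have passed. The adjusted value therefore cannot decide whether this pair differs. The next pairs also involved Fcer2a: Cd79a over Fcer2a had geometric means of 2.27 in Trp53ΔIEC and 4.73 in Trp53ΔIECAktE17K, and Pax5 over Fcer2a 0.273 and 0.778, both with an exact permutation p of 0.0571 before adjustment.

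Beyond the 9 members, 7 lists held 94 genes, 2 of them on 2 lists. Beside B lineage genes they include lymphoid follicle signals and follicular dendritic cell genes, so the pooled counts are not of B lineage genes alone. EdgeR called 0 of the 88 tested in either direction. With 1 tumour left out, 1 gene of these lists was called, Prnp without Trp53ΔIECAktE17K replicate 3 (edgeR adjusted p = 0.0202). At an unadjusted p under 0.05 there were 12 of the 88, 10 higher and 2 lower, where the share over all genes was 20.8%. That share also stands beside the counts given below for each list. DESeq2 called 6 (Ebf1, Rgs13, Ighg3, Fkbp11 and Prnp higher, Dapp1 lower), a smaller share than its 13.0% over all genes, and limma-voom called 0. Groups did not overlap for 4 of the 88 (4.55%), below the 14.2% of all genes. These were Dapp1, Ebf1, S1pr2 and Fkbp11. The median log2 fold change of the 88 was 0.036.

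Among 20 genes of B cell receptor signalling, 2 had an unadjusted p under 0.05 and the median log2 fold change was -0.20. Dapp1, an adaptor below PI3-kinase, was at 37.4 ± 4.61 CPM in Trp53ΔIEC and 25.9 ± 3.35 CPM in Trp53ΔIECAktE17K (SD, n = 4 each; edgeR adjusted p = 0.098). Fcgr2b, the inhibitory IgG receptor, was at 22.1 ± 8.11 and 46.6 ± 17.4 CPM (SD, n = 4 each; edgeR adjusted p = 0.137). Many of these genes are not confined to B cells: Blnk, an adaptor of the receptor, lay at 51.5 to 183 CPM, above every member of the B cell list.

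Among 13 B lineage transcription factors, 2 had an unadjusted p under 0.05 and the median log2 fold change was -0.17. Ebf1, a B lineage factor also found in stromal cells, was at 2.04 ± 0.455 and 4.47 ± 1.48 CPM (SD, n = 4 each; edgeR adjusted p = 0.101), with no overlap between the groups. Tcf3, an E protein of wide expression, was at 217 ± 45.9 and 165 ± 17.8 CPM (SD, n = 4 each; edgeR adjusted p = 0.232). Pou2af1, the coactivator that binds OCT proteins on the octamer, was at 5.09, 12.8, 20.7 and 2.84 CPM in Trp53ΔIEC replicates 1 to 4 and 22.9, 5.31, 18.5 and 73.1 CPM in Trp53ΔIECAktE17K replicates 1 to 4. Its highest tumour in each group was the one with the highest summed members.

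Of 19 tested genes for other B cell surface proteins and follicle entry, 1 had an unadjusted p under 0.05, and the median log2 fold change was 0.028. This was Vpreb3, a chaperone of the receptor, at 0.625 ± 0.377 and 1.98 ± 1.70 CPM (SD, n = 4 each; edgeR adjusted p = 0.199). The list followed the members' order of tumours, with 16 of 19 highest in Trp53ΔIEC replicate 3 and 14 of 19 higher in Trp53ΔIECAktE17K replicates 1 and 4. Ighm, the heavy chain of IgM, illustrates it in part, at 7.27, 36.2, 35.0 and 7.45 CPM in Trp53ΔIEC replicates 1 to 4 and 76.3, 17.2, 11.8 and 53.9 CPM in Trp53ΔIECAktE17K replicates 1 to 4; it is named here after its values were seen.

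Of 5 tested germinal centre genes, 2 had an unadjusted p under 0.05. Rgs13, a regulator of G protein signalling in germinal centre B cells, was at 0.402 ± 0.158 and 1.41 ± 0.890 CPM (SD, n = 4 each; edgeR adjusted p = 0.113). S1pr2, a receptor that keeps cells in the germinal centre, was at 24.9 ± 2.77 and 40.4 ± 14.4 CPM (SD, n = 4 each; edgeR adjusted p = 0.148). Bcl6, the factor that defines germinal centre B cells, was at 35.97 ± 5.45 and 32.6 ± 10.6 CPM (SD, n = 4 each; edgeR adjusted p = 0.793).

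Of 14 tested plasma cell genes, 4 had an unadjusted p under 0.05, 13 had a positive fold change and the median was 1.15 on the log2 scale. Without Trp53ΔIECAktE17K replicate 4, 6 of 14 were positive, 2 had an unadjusted p under 0.05 and the median was -0.17. Fkbp11, a folding factor of secretory cells, was at 8.99 ± 2.79 and 18.9 ± 3.38 CPM (SD, n = 4 each), with no overlap between the groups and the smallest adjusted p of the 88 genes (edgeR, 0.065). Ighg3, an IgG heavy chain, was at 0.497, 3.20, 1.79 and 0.326 CPM in Trp53ΔIEC replicates 1 to 4 and at 35.5, 2.43, 5.50 and 21.9 CPM in Trp53ΔIECAktE17K replicates 1 to 4 (edgeR adjusted p = 0.103). The summed list came to 2511, 3861, 5588 and 1766 CPM in Trp53ΔIEC replicates 1 to 4. In Trp53ΔIECAktE17K replicates 1 to 4 it came to 4786, 2294, 2516 and 18940 CPM, so replicate 4 held more than the other 3 together. Reads shared by related immunoglobulin genes are not counted for any of them, and these levels rest on the reads that differ.

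Of 12 tested genes for follicle signals, 0 had an unadjusted p under 0.05. Cxcl13, the chemokine that draws B cells into follicles, was at 3.48, 9.51, 11.7 and 2.70 CPM in Trp53ΔIEC replicates 1 to 4 and at 17.3, 4.28, 19.1 and 35.2 CPM in Trp53ΔIECAktE17K replicates 1 to 4 (edgeR adjusted p = 0.263). Its highest tumours matched those of the members except Trp53ΔIECAktE17K replicate 3. Of 7 tested follicular dendritic cell genes, 2 had an unadjusted p under 0.05: Fcgr2b, above, and Prnp, the prion protein gene, at 59.7 ± 9.06 and 113 ± 35.3 CPM (SD, n = 4 each; edgeR adjusted p = 0.077). Prnp is also expressed by many other cells.

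Of 15 tested T cell genes, 13 had a negative fold change, beside 5 of the 9 members, with a median of -0.76. Without Trp53ΔIEC replicate 3, 9 of 15 were negative and the median was -0.31. EdgeR called 0 of them, as did DESeq2 and limma-voom, with 0 at an unadjusted p under 0.05. Trac, the constant chain of the alpha T cell receptor, had the smallest p, at 5.56 ± 4.00 and 2.39 ± 1.2 CPM (SD, n = 4 each; edgeR adjusted p = 0.304). The difference between the B cell and the T cell fold changes was not tested.

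The genes whose pattern over the 8 tumours was most like that of the members were ranked by Pearson r between a gene's log2 CPM and the mean of the 9 standardised members, over 13995 genes with a median r of 0.0024. Those named by the ranking were Rcsd1 (r 0.967, Spearman rho 0.952), Pxmp4 (0.938 and 1.00), Il9r (0.930 and 0.929), Zhx1 (0.928 and 0.905), Cxcr5 (0.922 and 0.929), Lax1 (0.920 and 0.929), Btnl7-ps (0.919 and 0.905), Ces2c (0.915 and 0.881) and Ogn (0.914 and 0.905). Cxcr5 encodes the receptor for Cxcl13 and was the one gene of these on a list. It was at 1.30, 1.58, 4.53 and 0.372 CPM in Trp53ΔIEC replicates 1 to 4 and at 3.43, 0.823, 1.55 and 2.79 CPM in Trp53ΔIECAktE17K replicates 1 to 4. Rcsd1 spanned only 9.17 to 15.0 CPM and Pxmp4 only 16.9 to 28.2 CPM, so a high r here did not require a wide range. All values share the same 8 libraries. The genes named are the top of 13995 values of r over 8 tumours, and such a selection alone can yield high r. Whether any of them tracks the members beyond that was not tested.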

How the data were processed

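Per the labels' protocols, tumour RNA was purified with RNeasy Mini columns and sequencing libraries came from the TruSeq mRNA v2 kit, which does not record strand. The authors deposited counts of reads per Ensembl gene, without normalisation. The submitters' processing notes list HTSeq 0.6, STAR 2.3.0, DESeq2 1.8.1, CASAVA 1.8.2 and SAMtools 1.2 with the build mm10; the annotation release, strand setting or any filter was not given in the sources used here. Closing lines for unassigned reads were set aside: 9.74% to 11.7% of reads lay in no feature and 1.93% to 2.32% were ambiguous. GENCODE M21 (GRCm38) held 36602 of 38355 identifiers (95.4%).

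Counts were filtered with filterByExpr, scaled by TMM and fitted in edgeR 4.0.16 (R 4.3.3) with the robust quasi-likelihood F-test, the group as its only term and Benjamini-Hochberg adjustment over 16539 genes (threshold 0.05). The SE is the log2 fold change over the root of F, and the 95% interval uses the test's degrees of freedom. DESeq2 1.42.0, limma-voom 3.58.1, other scaling, no filter, the replicate block, the letter in the sample titles (A for Trp53ΔIECAktE17K replicates 1 and 2, B for the rest, meaning not stated) and leaving out each tumour were alternatives; the 36 pair ratios and the lists with each tumour left out were added after seeing the data.

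Members and lists were chosen with earlier results of these data known, and nothing here is independent of them. Named genes are the 9 members, up to 4 genes with the smallest p of each list (those that bear on a result are printed) and the 10 most like the members among genes with an average log2 CPM of at least 0, leaving out predicted models; 1 gene so selected is not reported here. No protein motif was searched. Deviations of same-numbered tumours of the 2 groups correlated at -0.24 to 0.0093, and those of differently numbered tumours at -0.24 to 0.25. The main fit did not pair tumours by number, and so few correlations cannot exclude a pairing.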

Additional observations from a re-analysis of the deposited data

Results flagged for a closer look

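Of 72 groups of 4 tumours looked at, 7 had a tumour set apart on the CPM or percent scale. Its gap to the nearest neighbour took up more of the group's range than Dixon's 95% critical value. That value is passed by about 1 in 20 independent groups of normally distributed values. CPM are skewed and these groups share tumours and genes, so 7 of 72 cannot be set against that rate. Among the members, Ms4a1 stood apart in Trp53ΔIEC replicate 3, at 7.822 CPM beside 1.569, 1.805 and 0.7445 CPM. Cr2 stood apart in the same tumour, at 6.537 CPM beside 1.837, 0.9025 and 0.9772 CPM. That library has the fewest assigned reads, 18572180.

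Within Trp53ΔIEC, the 9 members as a percentage of Jchain were lowest in replicate 2, at 7.724% beside 9.364% to 9.691%. The summed plasma cell genes were 18940 CPM in Trp53ΔIECAktE17K replicate 4, beside 2294 to 4786 CPM, and Igkc, the kappa light chain constant gene, was 4782 CPM there, beside 309 to 942 CPM. The summed follicular dendritic cell genes were 3399 CPM in Trp53ΔIECAktE17K replicate 2, beside 695 to 1104 CPM. Clu alone made up 2944 CPM of that sum. The summed hepatocyte genes were 139.1 CPM in Trp53ΔIECAktE17K replicate 3, beside 13.9 to 24.9 CPM. Fgb alone made up 126.3 CPM of it, so both sums rest mainly on 1 gene.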

How the results depend on the processing

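The number of genes called over the whole table was 694. DESeq2, fitted to 26358 genes without the filter on low counts, called 2489, of which 2127 were among 16419 genes of the main fit. The main count of 694 became 96 with the title's letter as a term and 50 with the replicate block. Leaving out 1 tumour gave 74 to 949. The number fell by over 1.5 times with any one of the 4 Trp53ΔIEC tumours left out (74 to 254) and without Trp53ΔIECAktE17K replicate 1 (180) or 2 (289). The number of B cell genes called was 0 in each of the 14 alternatives. Of 126 member results under them, 109 kept their sign and 17 took the other, and the smallest adjusted p was 0.260. The sign changed for Ms4a1 (0.16) and Blk (0.098) with the title's letter as a term and for Cr2 with limma-voom (0.115) and with the replicate block (0.105). Leaving out 1 tumour moved the log2 fold change between -0.54 and 1.03 for Ms4a1, -0.074 and 1.27 for Cd79a, -0.29 and 0.69 for Cd79b, 0.64 and 1.56 for Pax5, -0.47 and 0.91 for Cr2, -1.14 and -0.075 for Fcer2a, -0.52 and 0.51 for Blk, -0.64 and 0.28 for Cd22, and 0.076 and 0.97 for Fcmr. The highest value of each of the 9 came without Trp53ΔIEC replicate 3; the lowest came without Trp53ΔIECAktE17K replicate 4 for Ms4a1, Cd79a, Cd79b, Pax5 and Blk and without replicate 1 of that group for Cr2, Fcer2a, Cd22 and Fcmr.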
